A study of Mus musculus with 24 samples.

Results

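The response of the hippocampus to LLC tumour cells was set against that of the cerebellum in male C57BL/6J mice aged 4 months. The mice had been injected with LLC cells, a cancer line that the labels name only by this abbreviation, about 3 weeks earlier, and the controls were mock-injected mice of the same strain, sex and age. The measure was a difference of 2 differences, LLC minus control in hippocampus minus LLC minus control in cerebellum, on log2(TPM + 1). It used 16 of the 24 RNA-seq libraries, with 4 LLC libraries (replicates 1 to 4) and 4 control libraries (replicates 14 to 17) in each region. TPM is a transcript abundance, divided by transcript length and scaled to the same total in every library. Of 47643 gene symbols, 13884 had a mean of at least 1 TPM in both regions and were tested. A positive value means a more positive LLC effect in hippocampus than in cerebellum.

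The series title places the study in cachexia, the loss of muscle and fat that can accompany a growing tumour. A tumour outside the brain is known to act on it mainly through the blood, by cytokines, glucocorticoids and circulating cells that meet the endothelium first. The hippocampus and the cerebellum share these vascular and glial cell types but differ in their neurons. Pyramidal and dentate granule cells dominate the first, and Purkinje and cerebellar granule cells the second, where the radial Bergmann glia also hold much of the vimentin.

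The labelled regions carried their markers. Gabra6, of cerebellar granule cells, ranged from 455 to 986 TPM in cerebellum and from 0 to 0.40 TPM in hippocampus, and Neurod6, a transcription factor of forebrain pyramidal cells, from 264 to 348 TPM in hippocampus and from 8.72 to 12.6 TPM in cerebellum. Between 14448 and 14847 genes reached 1 TPM in a library, and read depth is unknown because TPM does not keep it. Cerebellar LLC replicate 1 stood apart: its summed cerebellar granule cell genes came to 4208 TPM against 6298 to 7172 TPM in the other 7 cerebellar libraries, and its summed Purkinje cell genes to 5450 TPM against 8070 to 8880 TPM. Choroid plexus genes summed to between 151 and 8542 TPM across hippocampal libraries, with control replicates 14 (3127 TPM) and 17 (5022 TPM) and LLC replicate 2 well above the other 5. LLC replicate 4 had the lowest erythroid sums among LLC libraries in both regions, 4681 TPM against 14820 to 15977 TPM in cerebellum and 3397 TPM against 7743 to 11007 TPM in hippocampus.

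Across these 16 libraries the LLC effect differed between the regions in 2 genes, Vim and Gda. The Vim effect was more positive in hippocampus and the Gda effect more negative. They were the genes with an adjusted p under 0.05 by limma with Benjamini-Hochberg adjustment over all 13884 genes, 0.0144% of those tested. Gda reached the filter of 1 TPM in cerebellum through its LLC libraries, since its control mean there was 0.54 TPM; 1.03% of the genes tested had a control mean under 1 TPM in one or both regions. The next 3 genes, Shisa9, Npy and Hes5, each had an adjusted p of 0.0624 by limma. At an unadjusted p under 0.05 there were 1196 genes, 8.61% of those tested. The count of 2 moved with the fit and with single libraries. With all 24 libraries in 1 fit 7 genes were higher in hippocampus and 6 lower, and with weights per library 211 and 95, by limma. One replicate number moved it too: without LLC replicate 4 in both regions, 12 genes were higher in hippocampus and 16 lower by limma. Without that replicate in cerebellum alone the counts were 15 and 12, and without it in hippocampus alone 3 and 8. Npy, Hes5, Shisa9 and Lacc1 were among the 28 genes that passed without LLC replicate 4 in both regions. Their differences in that setting were -1.22, -1.5004, 0.84 and 0.95 on the log2 scale.

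Vim encodes vimentin, an intermediate filament protein of astrocytes, Bergmann glia, endothelium and mesenchymal cells, and lies at chr2:13573927-13582826 on the plus strand (mm10, GENCODE M21). In hippocampus the LLC libraries, replicates 1 to 4 in order, held 81.0, 82.5, 80.0 and 64.7 TPM of Vim, and controls 14 to 17 held 37.7, 44.2, 45.5 and 47.6 TPM. In cerebellum it stood at 179, 211, 188 and 204 TPM in LLC libraries and at 197, 240, 227 and 243 TPM in controls. Every hippocampal LLC library was above every control, with LLC replicate 4 nearest to them, whereas the cerebellar groups overlapped and the LLC mean was the lower one. Vim rose by 0.80 ± 0.09 (log2, SE, n = 4 per group) in hippocampus, with an adjusted p of 0.00596 by limma, and its cerebellar effect of -0.21 ± 0.08 did not pass (adjusted p = 0.153 by limma). The difference was 1.01 ± 0.13 (SE), with a 95% interval of 0.74 to 1.29 and an adjusted p of 0.00483 by limma. The control level was higher in cerebellum, 227 ± 20.8 TPM against 43.8 ± 4.29 TPM (SD, n = 4). Whether more cells held Vim RNA or each cell held more cannot be told apart in bulk tissue. Vim missed the threshold in 3 of the 39 alternatives, with an adjusted p by limma of 0.112 without the 3 hippocampal libraries rich in choroid plexus genes, 0.0790 without LLC replicate 3 in both regions and 0.0676 without control replicate 15 in both.

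Gda encodes guanine deaminase, which turns guanine into xanthine and in neurons is also known as the dendritic protein cypin. It lies at chr19:21391307-21473445 on the minus strand. In hippocampus the LLC libraries held 116, 137, 136 and 121 TPM of Gda, and the controls 142, 145, 149 and 140 TPM, in the same order of replicates. In cerebellum it stood at 2.04, 2.05, 1.66 and 1.62 TPM in LLC libraries and at 0.62, 0.39, 0.56 and 0.61 TPM in controls. The groups did not overlap in either region, and they parted in opposite directions, below the controls in hippocampus and above them in cerebellum. Gda rose in cerebellum by 0.88 ± 0.11 (log2, SE; adjusted p = 0.0134 by limma), and its hippocampal effect of -0.18 ± 0.06 did not pass (adjusted p = 0.111 by limma). The difference of -1.06 ± 0.11 had a 95% interval of -1.29 to -0.83 and an adjusted p of 0.000474 by limma. The cerebellar values were of the size of the pseudocount of 1 TPM, and with a pseudocount of 0.1 TPM the difference became -1.78. Gda was not tested at a filter of 5 TPM and passed in the other 38 alternatives.

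Gda is a forebrain transcript, at 144 ± 4.20 TPM in control hippocampus and 0.54 ± 0.10 TPM in control cerebellum (SD, n = 4), so other genes of that kind were read in the cerebellar libraries. In all, 18 genes had at least 50 TPM in control hippocampus and at most 1 TPM in control cerebellum. Gda and Spink8, a protease inhibitor gene of CA1 pyramidal cells, were the 2 whose 4 cerebellar LLC libraries all exceeded all 4 controls. The rise of Gda prompted this count, so Gda was bound to be among them and Spink8 was the only other gene. The share over the 786 genes with at least 1 TPM in control hippocampus and at most 1 TPM in control cerebellum was 4.07%. Spink8 averaged 0.41 TPM in cerebellar LLC libraries and 0.07 TPM in controls. None of the 18 had all LLC libraries below the controls, and in 7 of them cerebellar LLC replicate 1 alone exceeded the controls. Ddn, a dendritic protein gene at 1640 TPM in control hippocampus, averaged 0.56 TPM in cerebellar LLC libraries against 0.51 TPM in controls. Crym averaged 0.06 TPM against 0.09 TPM. Fibcd1 averaged 0.61 TPM against 0.38 TPM and Rgs14 0.50 TPM against 0.32 TPM, each with 3 of the 4 LLC libraries above all controls.

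**Figure D1:**
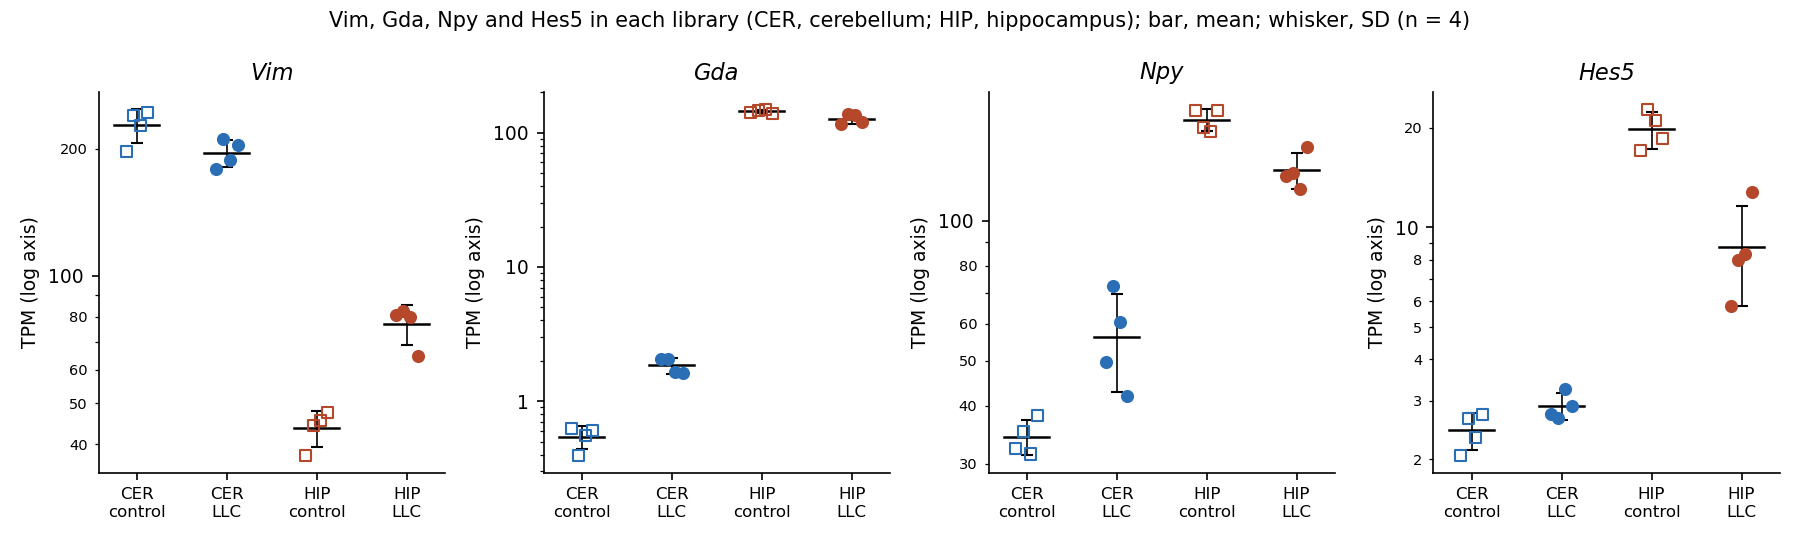
TPM on log axes for Vim, Gda, Npy and Hes5 in each of the 16 libraries. Open squares are controls and filled circles LLC libraries, blue is cerebellum and red hippocampus, bars are means and whiskers SD (n = 4). The hippocampal LLC points of Vim lie between 64.7 and 82.5 TPM, above all hippocampal controls, and the cerebellar LLC points of Gda lie between 1.62 and 2.05 TPM, above all cerebellar controls.

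Npy, the precursor of neuropeptide Y, an inhibitory peptide of interneurons, was called in both regions in opposite directions. It stood at 125, 127, 117 and 144 TPM in hippocampal LLC libraries and at 172, 159, 156 and 173 TPM in controls. In cerebellum it stood at 49.8, 72.4, 60.4 and 41.9 TPM in LLC libraries and at 32.3, 35.2, 31.5 and 38.1 TPM in controls. The groups did not overlap in either region. Npy fell by 0.36 on the log2 scale in hippocampus (adjusted p = 0.0228 by limma) and rose by 0.67 in cerebellum (adjusted p = 0.0476 by limma). The difference itself, -1.03 ± 0.17 with a 95% interval of -1.40 to -0.67, did not pass.

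Hes5, a transcriptional repressor that is a target of Notch in astrocytes and progenitors, stood at 5.78, 7.98, 8.31 and 12.7 TPM in hippocampal LLC libraries and at 17.02, 22.7, 20.98 and 18.6 TPM in controls. In cerebellum it stood at 2.74, 2.67, 3.27 and 2.89 TPM in LLC libraries and at 2.05, 2.66, 2.33 and 2.73 TPM in controls. All hippocampal LLC libraries lay below the controls, replicate 4 being the highest of them, and the cerebellar groups overlapped. Hes5 fell by 1.14 on the log2 scale in hippocampus (adjusted p = 0.0167 by limma), its cerebellar effect was 0.18 (adjusted p = 0.311 by limma), and the difference of -1.32 ± 0.22 did not pass.

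Shisa9, an auxiliary subunit of AMPA-type glutamate receptors, stood at 36.4, 35.2, 35.3 and 39.4 TPM in hippocampal LLC libraries and at 29.0, 35.3, 35.2 and 35.4 TPM in controls. In cerebellum it stood at 13.5, 14.1, 15.2 and 19.0 TPM in LLC libraries and at 23.2, 26.6, 24.5 and 25.4 TPM in controls. The groups overlapped in hippocampus and did not in cerebellum, where Shisa9 fell by 0.66 on the log2 scale (adjusted p = 0.0220 by limma). Its difference was 0.78 ± 0.13 and did not pass.

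The other genes with the smallest p in each direction did not pass either, with adjusted p values by limma from 0.110 to 0.346. They are grouped here by the region in which LLC and control libraries parted. Glis3, a zinc finger transcription factor, averaged 11.6 ± 2.02 TPM in hippocampal LLC libraries and 6.49 ± 0.99 TPM in controls (SD, n = 4), a rise of 0.75 on the log2 scale, against an effect of -0.05 in cerebellum. Retsat, a retinol saturase, rose in hippocampus from 8.85 ± 0.18 to 12.4 ± 0.52 TPM and stood at 11.5 ± 0.60 and 11.8 ± 0.25 TPM in control and LLC cerebellum. Klf10, a transcription factor induced by TGF-beta, fell in hippocampus from 29.2 ± 2.94 to 21.3 ± 1.18 TPM and stood at 8.18 ± 0.16 and 9.60 ± 1.65 TPM in cerebellum. In these 3 genes the groups were apart in hippocampus and overlapped in cerebellum.

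In cerebellum, Samd5 fell from 3.52 ± 0.26 to 1.51 ± 0.56 TPM, while hippocampal means were 6.45 ± 0.61 and 6.53 ± 0.65 TPM (SD, n = 4). Sh2b2, an adaptor in insulin receptor signalling, rose in cerebellum from 3.79 ± 0.27 to 5.82 ± 0.58 TPM and had a hippocampal effect of -0.19 on the log2 scale. Ccdc3 rose in cerebellum from 10.2 ± 0.21 to 15.6 ± 3.01 TPM, with a hippocampal effect of -0.24. For Lcorl, Socs2, an inhibitor of growth hormone signalling, and Mapk11, the p38-beta kinase, the cerebellar groups did not overlap but the cerebellar effects, -0.45, 0.40 and 0.31, did not pass. Lmo7, an actin-binding protein of cell junctions, rose in hippocampus by 0.26 and had a cerebellar effect of -0.43 that did not pass. Lacc1, an enzyme of purine metabolism in macrophages, had non-overlapping groups in both regions, with effects of 0.42 in hippocampus and -0.38 in cerebellum that did not pass.

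**Figure D2:**
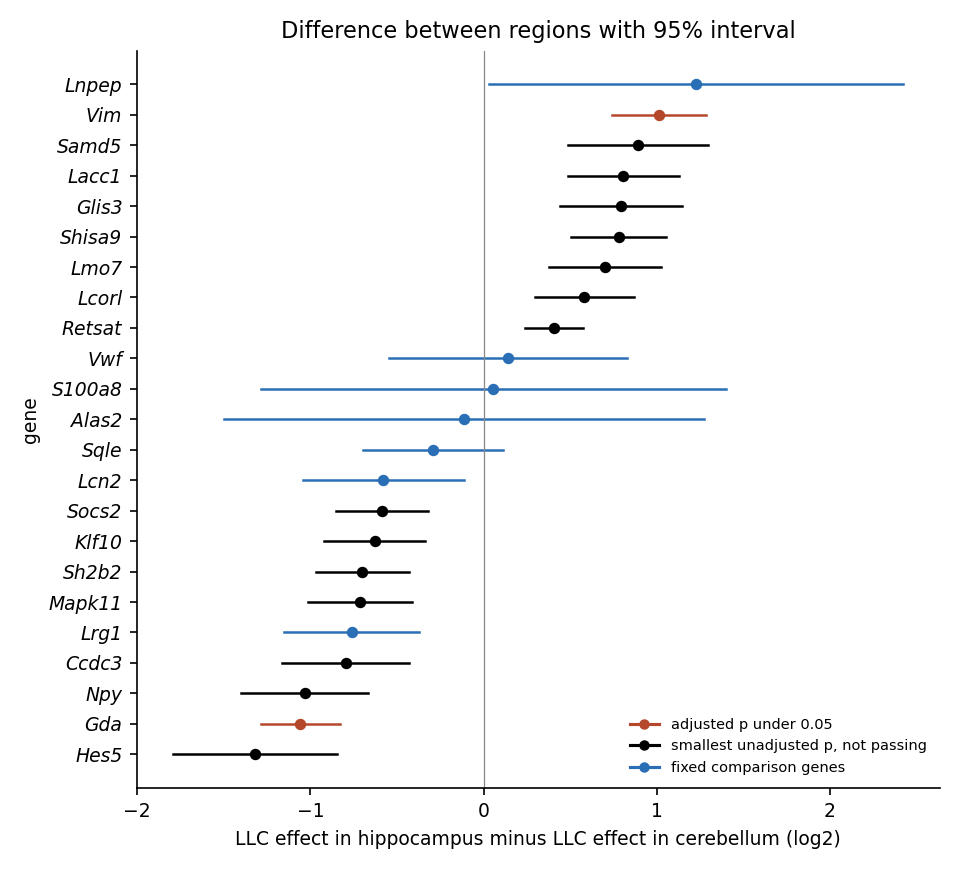
Difference of the LLC effect, hippocampus minus cerebellum, on the log2 scale for 23 genes, with 95% intervals from limma. The intervals of Vim (0.74 to 1.29) and Gda (-1.29 to -0.83) belong to the 2 genes that passed; those in blue are genes with large effects in one or both regions, given as a base of comparison.

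Groups that parted in opposite directions were few. In hippocampus 9.15% of the genes tested had all LLC libraries above all controls and 4.75% had all below, and in cerebellum the shares were 6.37% and 10.6%. With the LLC libraries all above the controls in one region and all below in the other there were 10 genes, 0.072% of those tested. They were found after the values were seen. In 8 of them hippocampus was the region above its controls: C1ql3, Marcksl1, Elmod1, Lacc1, Adamts20, Kalrn, Arhgap12 and Gm21992. Npy and Gda were the 2 with hippocampus below. C1ql3, a secreted synaptic protein, had the largest difference of the 8, 0.98 ± 0.24, with effects of 0.25 in hippocampus and -0.73 in cerebellum (adjusted p = 0.346 by limma for the difference).

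Most of the genes that changed in one region had an effect of the same sign in the other. In hippocampus 398 genes rose (2.87% of those tested) and 152 fell (1.09%), and in cerebellum 180 rose (1.3%) and 207 fell (1.49%). Both regions called 144 genes, 26.2% of the hippocampal calls and 37.2% of the cerebellar calls, of which 99 rose in both, 44 fell in both and Npy went opposite ways. Of the 550 hippocampal calls 499 had the same sign in cerebellum, and of the 387 cerebellar calls 368 had the same sign in hippocampus. The share of all genes tested with the same sign was not counted, so these counts are not set against it. Across the 13884 genes the 2 effects had a Pearson r of 0.66 and a Spearman rho of 0.56. The 2 effects share no library, but genes are not independent replicates, and the labels do not say whether equal replicate numbers mark 1 animal. These regional counts rested on single libraries. Without hippocampal LLC replicate 4 they became 932 and 708, without cerebellar LLC replicate 1 649 and 669, and without cerebellar LLC replicate 4 583 and 935. Leaving out 1 of the other libraries lowered them, to between 63 and 163 rising and 7 and 39 falling genes in hippocampus, and to between 7 and 34 rising and at most 25 falling genes in cerebellum.

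A p above the threshold does not show that a gene responded alike in both regions. The intervals give what the fit without a replicate block could resolve. The median SE of the difference was 0.13 on the log2 scale, with 0.08 and 0.23 as the 10th and 90th percentiles. The 95% interval lay within ±0.5 for 68.5% of genes and within ±1 for 96.2%. Genes with the largest LLC effects had some of the widest intervals. Alas2, the first enzyme of erythroid haem synthesis, rose by 3.14 in hippocampus and by 3.26 in cerebellum, and its difference of -0.11 had an interval of -1.499 to 1.27. S100a8, a calprotectin subunit of neutrophils, rose by 2.97 and 2.91, with an interval of -1.29 to 1.40. Both varied among the LLC libraries: Alas2 was lowest in replicate 4, at 11.97 TPM in hippocampus and 19.7 TPM in cerebellum, and S100a8 highest there, at 31.1 and 38.6 TPM. In replicates 1 to 4 S100a8 stood at 7.81, 20.5, 10.95 and 31.1 TPM in hippocampus. The cerebellar values, 10.3, 29.0, 14.1 and 38.6 TPM, ranked the replicates in the same order. Variation that equal replicate numbers share is kept in these intervals, and intervals with a replicate block are not given for these genes.

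**Figure D3:**
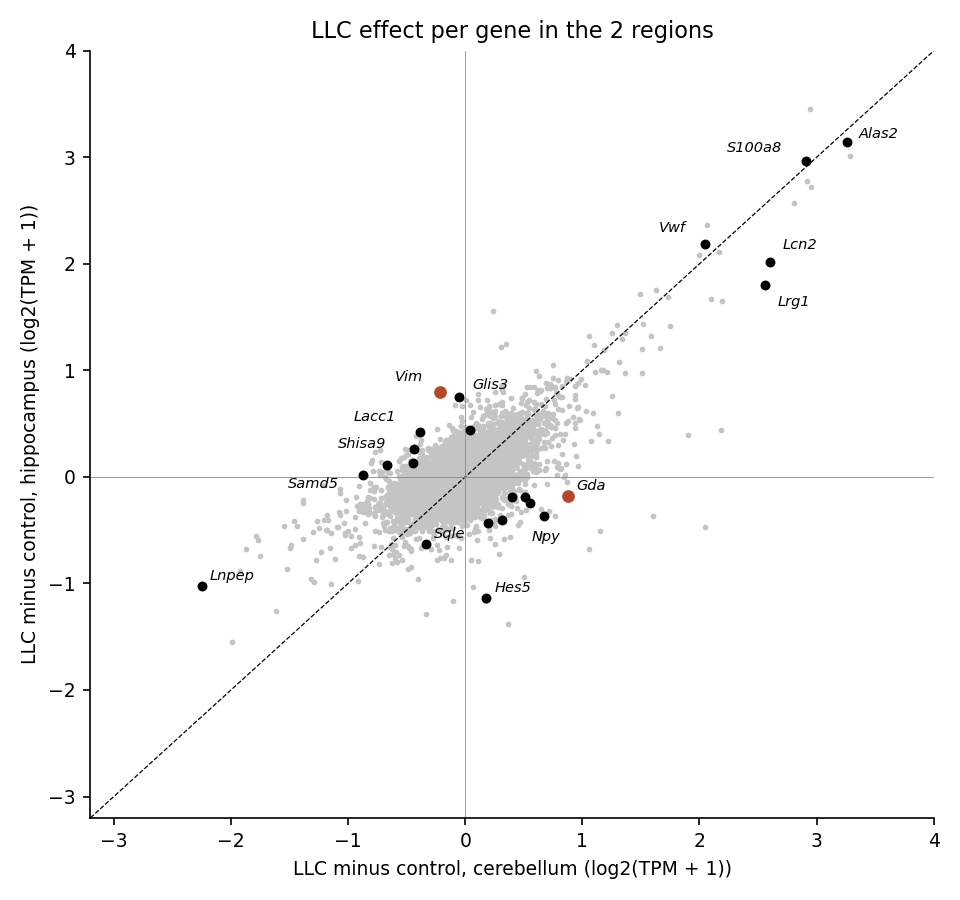
LLC minus control on log2(TPM + 1) for 13884 genes, cerebellum on the horizontal axis and hippocampus on the vertical; the dashed line marks equal effects. Red points are Vim and Gda, black points the other named genes; Alas2, S100a8 and Vwf lie near the line, and Lcn2, Lrg1 and Lnpep off it without passing.

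Some acute-phase genes rose in both regions. Of 21 acute-phase and STAT3 genes tested, of 25 listed, 6 rose in hippocampus and 10 in cerebellum, all 6 among the 10. The shares of all genes that rose were 2.87% and 1.3%. Of the 21, 4 genes, Lrg1, Lcn2, Ch25h and Hp, had a control mean under 1 TPM in one or both regions and entered the test there through their LLC libraries, so the counts and the median are descriptions of the genes that passed the filter. None of the 21 passed the test of the difference by limma, and 3 had an unadjusted p under 0.05, against 8.61% of all genes. The median difference was -0.19 against 0.05 over all genes, with 28.6% of members above 0 against 64.2%; the median was -0.09 without cerebellar LLC replicate 1, and -0.11 without cerebellar replicate 2 or hippocampal replicate 3. Lrg1, a secreted glycoprotein of the acute phase, stood at 4.38, 5.84, 4.03 and 6.00 TPM in hippocampal LLC libraries and at 12.4, 10.8, 9.30 and 8.87 TPM in cerebellar ones. Its controls ranged from 0.53 to 0.91 TPM in hippocampus and from 0.73 to 1.15 TPM in cerebellum. Lrg1 thus had no overlap between groups in either region, and every cerebellar LLC value was above every hippocampal one. It rose by 1.80 and 2.56 on the log2 scale, and the difference of -0.76 ± 0.18 (95% interval -1.15 to -0.37) did not pass (adjusted p = 0.346 by limma).

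Lcn2, an iron-siderophore-binding acute-phase protein also made by neutrophils, stood at 3.27, 4.54, 2.46 and 3.20 TPM in hippocampal LLC libraries and at 8.09, 8.25, 6.46 and 4.84 TPM in cerebellar ones. Controls were at 0.03 to 0.11 TPM in hippocampus and 0.18 to 0.52 TPM in cerebellum. The regional levels of the LLC libraries did not overlap, and both regions lay above their controls. Lcn2 rose by 2.02 in hippocampus and 2.60 in cerebellum. Its difference of -0.58 ± 0.22 (adjusted p = 0.526 by limma) changed sign to 0.22 with a pseudocount of 0.1 TPM, so no direction is given for it. Gpx3, a secreted glutathione peroxidase, rose in cerebellum by 2.18 and had a hippocampal effect of 0.44, with a difference of -1.74 ± 0.61 that did not pass. In cerebellum the LLC libraries stood at 80.5, 74.7, 64.5 and 16.2 TPM and the controls at 8.42 to 15.4 TPM. Cerebellar LLC replicate 4 thus lay just above the controls, and the rise rested on the other LLC libraries. Its hippocampal LLC libraries stood at 6.404, 22.5, 7.04 and 6.76 TPM and the controls at 4.91 to 7.81 TPM. Replicate 2, the LLC library rich in choroid plexus genes, was the one above the controls, and without it the hippocampal effect was 0.04 and the difference -2.14.

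Some blood cell genes rose in both regions. Of 12 erythroid and haemoglobin genes tested, of 16 listed, the same 6 rose in each, Alas2, the 4 haemoglobin genes and Isg20, and all 12 differences were below 0, between -0.45 and -0.00, with a median of -0.13 (10 of 12 with quantile normalization). Over all genes 64.2% of differences were above 0, and 2.87% of genes rose in hippocampus and 1.3% in cerebellum. Without cerebellar LLC replicate 4 the erythroid median became -0.40. Without hippocampal LLC replicate 4 it was -0.02, with 6 of the 12 above 0, so the shared direction rested on that library. Of 17 neutrophil genes listed, 7 passed the filter, and of these 5 rose in hippocampus and 6 in cerebellum, with differences between -0.58 and 0.51. Retnlg, Chil3 and Lcn2, among the 7, and Isg20 and Rsad2, among the 12, had control means under 1 TPM in one or both regions and entered through their LLC libraries. A gene at a low level in every library would not have entered, so these counts say nothing of the 10 neutrophil genes left out. No member of either list passed the test of the difference by limma, and 1, Lcn2, had an unadjusted p under 0.05, against 8.61% of all genes. The haemoglobin genes share near-identical copies, so their counts could have been split between them.

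Endothelial genes rose more often than they fell. Of 20 endothelial genes, 13 rose and 1 fell in hippocampus, and 7 rose and 1 fell in cerebellum. Among all genes tested 2.87% rose and 1.09% fell in hippocampus, and 1.3% rose and 1.49% fell in cerebellum. All 20 differences were above 0, from 0.03 to 0.39 with a median of 0.14. Over all genes 64.2% were above 0 and the median was 0.05. With median-ratio scaling 18 of the 20 endothelial genes were above 0, and with quantile normalization 16 of 20. Without cerebellar LLC replicate 4, 13 of 20 were above 0 and the median was 0.03, and without cerebellar LLC replicate 1 it was 0.23. Replicate 4 had an endothelial median of 0.12 relative to the cerebellar controls, against 0.36 to 0.74 in the other cerebellar LLC libraries and 0.44 to 0.61 in the hippocampal ones. None passed by limma, and 3 had an unadjusted p under 0.05, against 8.61% of all genes. Vwf, the clotting factor stored in endothelial granules, stood at 18.7, 21.2, 12.9 and 9.87 TPM in hippocampal LLC libraries and at 32.5, 28.5, 23.7 and 13.9 TPM in cerebellar ones. Controls were at 2.07 to 2.84 TPM and 4.31 to 5.81 TPM, below all LLC libraries of their region, and replicate 4 was the lowest LLC library in both. Vwf rose by 2.19 and 2.04, and its difference of 0.14 ± 0.32 changed sign in some alternatives, among them to -0.10 without cerebellar LLC replicate 4. Abcb1a, the P-glycoprotein pump of the blood-brain barrier, rose by 0.39 in hippocampus against -0.00 in cerebellum. Its difference of 0.39 ± 0.09 was the highest of the 20, with an adjusted p of 0.346 by limma. Itm2a, an endothelial membrane protein gene, fell in both regions, by 0.48 and 0.64.

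The cholesterol synthesis genes that passed in a region all fell. Of 25 tested, 13 fell in hippocampus and 6 in cerebellum, and 5 of these in both. The shares of all genes that fell were 1.09% and 1.49%. The median difference was -0.18, and 12% of the differences were above 0, against 64.2% of all genes. The median was -0.12 without cerebellar LLC replicate 4, -0.11 without hippocampal LLC replicate 1 and -0.30 without hippocampal LLC replicate 4. Sqle, the squalene epoxidase of the pathway, stood at 18.02, 21.5, 19.8 and 28.3 TPM in hippocampal LLC libraries and at 33.5, 39.3, 31.1 and 32.6 TPM in controls, without overlap. In cerebellum it stood at 19.8, 14.5, 15.03 and 19.3 TPM against 26.2, 21.5, 20.7 and 19.2 TPM, where the groups overlapped. Sqle fell by 0.63 in hippocampus, its cerebellar effect of -0.34 did not pass, and its difference of -0.29 ± 0.19 had an interval of -0.70 to 0.11. Mvd, a mevalonate pathway decarboxylase, fell by 0.76 in hippocampus and had a cerebellar effect of -0.22. None of the 25 passed the test of the difference by limma, and 5 had an unadjusted p under 0.05, against 8.61% of all genes.

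Glucocorticoid-responsive genes had a median effect of 0.45 in hippocampus and 0.58 in cerebellum. Of 24 tested, 7 rose in hippocampus and 4 in cerebellum, all 4 among the 7: Cebpd, Cdkn1a, Map3k6 and Mt1. The shares of all genes that rose were 2.87% and 1.3%. The median difference was -0.04, none passed by limma and 1 had an unadjusted p under 0.05, against 8.61% of all genes. The median was -0.35 without cerebellar LLC replicate 4, 0.12 without hippocampal LLC replicate 4 and 0.09 without cerebellar LLC replicate 1. Its sign thus changed with single libraries. In cerebellar LLC replicate 4 the summed glucocorticoid-responsive genes came to 2112 TPM. The other cerebellar LLC libraries had 4141 to 4214 TPM and the controls 1937 to 2320 TPM. Hippocampal LLC replicate 4 had 1800 TPM, also within the range of its controls, 1531 to 1814 TPM. The other hippocampal LLC libraries had 2298 to 2416 TPM. Much of these sums was Mt1 and Mt2, at 1671 to 1803 and 1162 to 1300 TPM in cerebellar LLC replicates 1 to 3. Without LLC replicate 4 in both regions the metallothionein genes Mt1 and Mt2 passed the difference, at -0.66 and -0.95, with adjusted p values by limma of 0.0285 and 0.0401; they were picked out after their values were seen.

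Among glial genes, Vim was the one member of the astrocyte list that passed, and the rest of the list was spread around 0. Of 20 astrocyte genes 55% had a difference above 0, against 64.2% of all genes, with a median of 0.02 (-0.03 with median-ratio scaling). Gfap, the filament protein that usually accompanies Vim in reactive astrocytes, had effects of -0.50 in hippocampus and -0.21 in cerebellum, neither of which passed, and a difference of -0.29 ± 0.28. Aldoc, the astrocytic aldolase, rose by 0.31 and 0.30. Of 8 Bergmann glia genes, 2 rose and 1 fell in hippocampus and 1 rose and 2 fell in cerebellum. Among all genes 2.87% rose and 1.09% fell in hippocampus, and 1.3% rose and 1.49% fell in cerebellum. Fabp7, a fatty acid-binding protein of radial glia, fell by 1.26 and 1.62, and Itih3 rose by 0.56 and 0.74. Of 19 microglia genes 5.26% had a difference above 0, against 64.2% of all genes, with a median of -0.13. None passed in either region by limma. Without 1 LLC library of one region that median lay between -0.27 (hippocampal replicate 4) and -0.02 (hippocampal replicate 3). Of 16 choroid plexus genes none passed the difference or an unadjusted p of 0.05, and the SE of Ttr, the transthyretin of that tissue, was 2.13, with the summed values given above.

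Neuronal lists held no gene that passed the difference by limma. Of 13 neuropeptide genes the median difference was -0.25, Npy and Cck fell in hippocampus, and Npy rose in cerebellum. Among all genes 1.09% fell in hippocampus and 1.3% rose in cerebellum. The median was -0.13 without cerebellar LLC replicate 1, and -0.46 without any 1 of the other 3 cerebellar LLC libraries. Of 11 dentate granule cell genes listed, 7 passed the filter of 1 TPM in both regions. All 7 had a difference above 0 (6 with either scaling), against 64.2% of all genes, with a median of 0.32. Of the 7, 2 had an unadjusted p under 0.05, against 8.61% of all genes. Prox1, a transcription factor of these cells, was highest at 0.62 ± 0.20. The 7 are also expressed in cerebellum, so they do not read dentate cells alone. Ablim3 stood at 94.0 to 101 TPM in control cerebellum and at 18.8 to 27.0 TPM in control hippocampus. Without cerebellar LLC replicate 1, 5 of the 7 were above 0. None of the 7 passed in either region. Of 12 Purkinje cell genes 75% were above 0, against 64.2% of all genes. Their median of 0.25 became 0.03 without LLC replicate 1 in both regions. Nptx2, a neuronal pentraxin, and Homer1, a postsynaptic scaffold, were the 2 immediate early genes that fell in hippocampus, by 0.37 and 0.31. The 26 cytosolic ribosomal protein genes had a median of -0.09, with 7.69% above 0 against 64.2% of all genes. Without cerebellar LLC replicate 1 the median was -0.03 and 10 of 26 were above 0. The 23 nuclear respiratory chain genes had a median of -0.02.

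Of 14 basement membrane genes, 3 rose in hippocampus and 4 in cerebellum, with a median difference of 0.00. For the lists of this paragraph, the shares over all genes were 2.87% rising and 1.09% falling in hippocampus. In cerebellum they were 1.3% and 1.49%. Col4a1, a collagen IV chain, rose by 0.46 and 0.77. Its partner Col4a2 rose by 0.81 in cerebellum and had a hippocampal effect of 0.08, a difference of -0.73 ± 0.22 that did not pass (adjusted p = 0.441 by limma). Nid1, which links the collagen IV and laminin networks, had the opposite difference, 0.58 ± 0.14, and did not pass (adjusted p = 0.349 by limma). Of 21 chaperone genes, 6 fell and 2 rose in hippocampus, and 4 fell in cerebellum. Hspa4l and Hspd1 fell in both, by 0.32 and 0.48 and by 0.21 and 0.32. Of 19 metallothionein and antioxidant genes, 1 rose and 1 fell in hippocampus, and 2 rose and 1 fell in cerebellum. Mt1 rose in both regions, by 0.46 and 0.94, and Slc7a11, the cystine importer, fell in cerebellum by 0.77 against an effect of -0.37 in hippocampus. The 22 glutamate receptor and 13 GABA-A receptor genes had median differences of 0.17 and 0.13 (0.03 and 0.04 without cerebellar LLC replicate 1). Of them 5 and 2 had an unadjusted p under 0.05, against 8.61% of all genes, and none passed by limma. The single genes named from these lists were chosen after their values were seen.

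**Figure D4:**
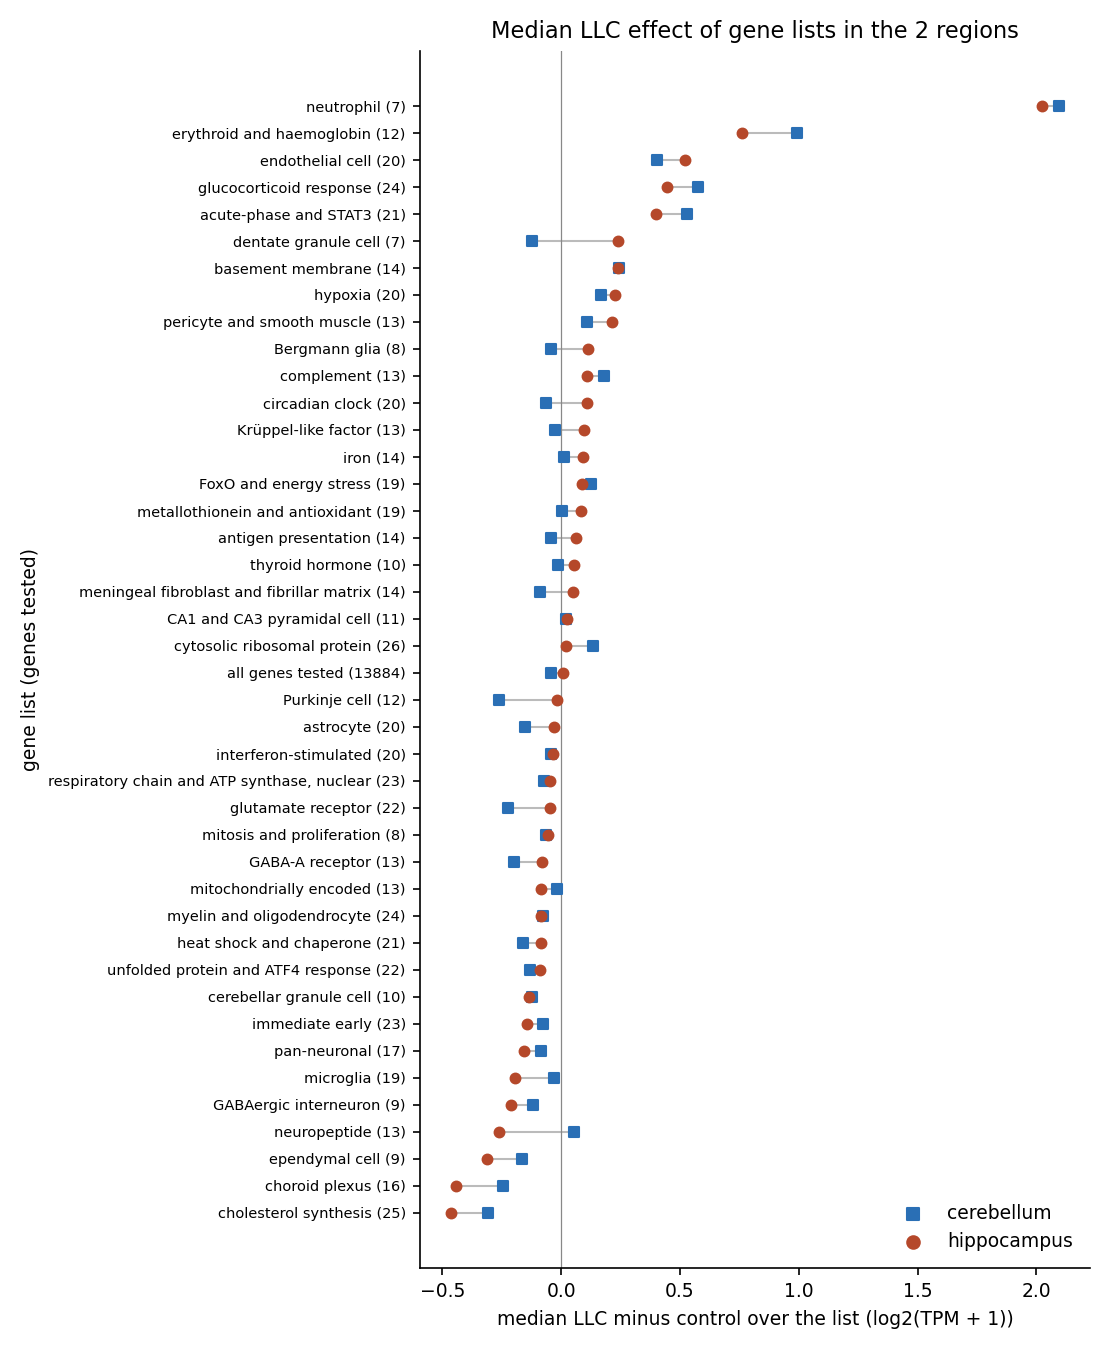
Median LLC effect over each of 41 gene lists and over all genes tested, on log2(TPM + 1), in cerebellum (blue squares) and hippocampus (red circles), with the number of genes tested in brackets. Neutrophil (2.02 in hippocampus, 2.10 in cerebellum) and erythroid lists lie highest in both regions, over members of which some entered through their LLC libraries, and cholesterol synthesis lies lowest in both.

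Lnpep, the insulin-regulated aminopeptidase, had one of the larger differences. It stood at 2.24, 4.11, 3.45 and 2.17 TPM in hippocampal LLC libraries and at 5.11, 6.69, 9.69 and 6.93 TPM in controls, and in cerebellum at 1.85, 14.7, 12.7 and 8.38 TPM in LLC libraries and at 36.3, 58.8, 43.9 and 28.6 TPM in controls. Groups were apart in both regions, with cerebellar LLC replicate 1 far below the rest. Lnpep fell by 1.02 in hippocampus and by 2.25 in cerebellum, and its difference of 1.23 ± 0.56 had an interval of 0.03 to 2.42 (adjusted p = 0.575 by limma).

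The difference over all genes was not centred on 0, and it followed transcript length. Its median was 0.05, and 64.2% of genes were above 0. Of the 1196 genes at an unadjusted p under 0.05, 937 were positive and 259 negative. With median-ratio scaling 51.1% of genes were above 0 and the split was 570 to 591, and with quantile normalization 50.3% and 664 to 624. With length and GC content removed 66.4% were above 0 and the split was 850 to 231. That setting keeps each library's mean level, so it could not centre the difference. Without cerebellar LLC replicate 1 the values were 58.4% and 857 to 369. Genes were divided into 10 equal classes of transcript length. In the class of longest transcripts, 6892 bases or more, the median was 0.17, from effects of -0.00 in hippocampus and -0.16 in cerebellum. In the class of shortest transcripts, up to 1360 bases, it was -0.03. The medians followed GC content too, from 0.16 in the lowest of 10 equal classes to -0.03 in the highest. Cerebellar LLC replicate 1 had the steepest length trend, -0.53 between the longest and shortest classes against -0.17 to 0.06 in the other cerebellar libraries. Without it the longest class had a median of 0.08 and the shortest -0.01. Vim and Gda, with longest transcripts of 2926 and 5428 bases, lay in length classes with medians of 0.03 and 0.11, and both passed with length and GC content removed.

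**Figure D5:**
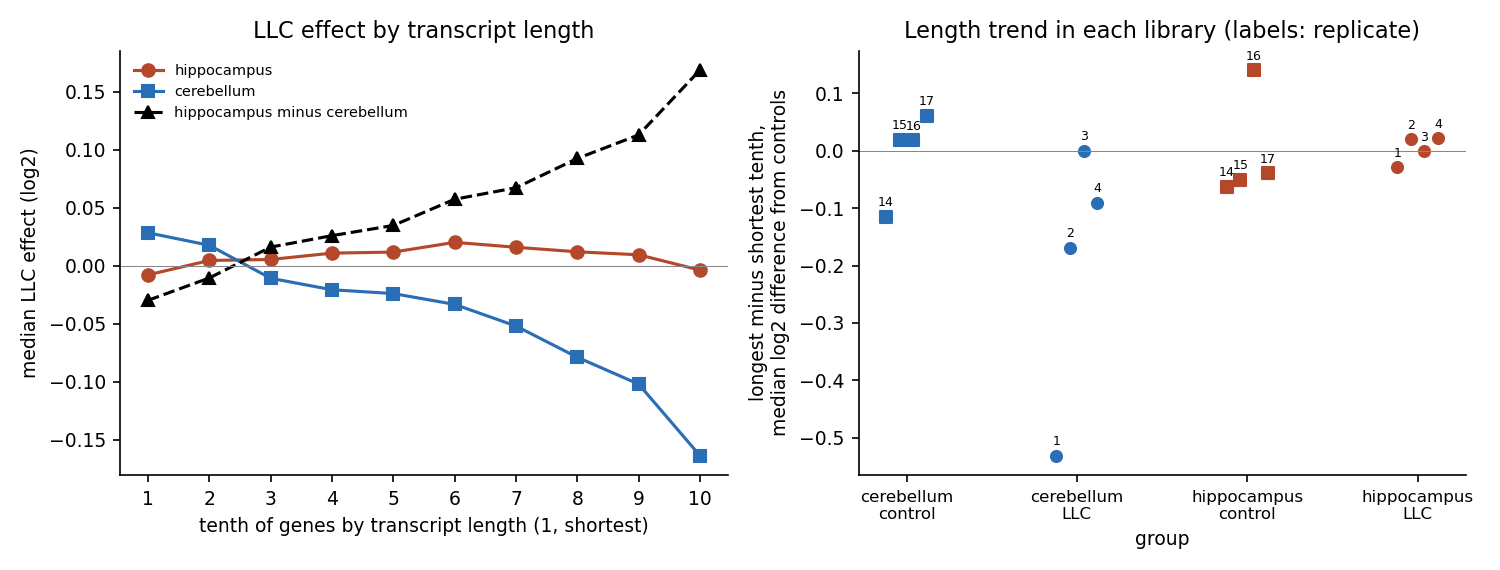
Left, median LLC effect (log2) in 10 equal classes of genes by transcript length, for hippocampus, cerebellum and their difference. Right, the difference between the longest and shortest class in each library, relative to the controls of its region; cerebellar LLC replicate 1 stands at -0.53.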

How the data were processed

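The authors deposited 1 table of TPM values on the mm10 build, as the submitters' processing notes name it. Libraries were made from Trizol-extracted RNA with a stranded messenger RNA kit, per the labels' protocols. For the aligner, the counting tool and the annotation, nothing is given in the sources used here. TPM gives shares of a library's total, so a gene that takes more lowers the others. Exact zeros may be failed estimates. Neocortex libraries were not used in the main comparison.

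Groups came from the titles. No pair of the 16 libraries was identical. Values were tested as log2(TPM + 1), which understates fold changes of low genes, by limma version 3.58.1 under R 4.3.3, a linear model of 4 group means over 16 libraries without a block, with moderated variances that follow a trend in mean level. Each region was also fitted alone on its 8 libraries. Tests were two-sided, with Benjamini-Hochberg adjustment over 13884 genes at 0.05. The method was tested on simulated data. SE and intervals are limma's moderated values at 95%, and SD is over 4 libraries. Figures were drawn with matplotlib 3.10.9 in Python 3.11.15.

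The comparison, the 41 gene lists (684 genes) and the rules were chosen with earlier results of these data known. Named genes were those that passed, up to 12 in each direction, filled to 8 with the smallest p that did not pass, the passing list members, and 7 fixed comparison genes. Symbols were matched to GENCODE M21 (96.7% of tested genes). Alternatives were other pseudocounts, filters, scalings, weights and blocks, a correction for length and GC content, all 24 libraries, and leaving out libraries.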

Additional observations from a re-analysis of the deposited data

Results flagged for a closer look

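The LLC effect on 2 genes differed between the regions by the contrast itself, in limma over all genes tested: Vim at 1.01 and Gda at -1.06 on the log2 scale. Neocortex, which the comparison did not use, had Vim at 88.2, 76.4, 83.8 and 60.0 TPM in LLC replicates 1 to 4, a mean of 77.1 TPM, against 39.8 to 47.8 TPM in its 4 controls. All 4 neocortical LLC libraries were above the controls for Vim, and replicate 4 was the lowest there, as in hippocampus. Gda in neocortex stood at 153, 150, 150 and 168.1 TPM in LLC libraries and at 168.8 to 179 TPM in controls. All 4 LLC libraries were thus below the controls, as in hippocampus, replicate 4 narrowly. The share of all genes with non-overlapping groups in neocortex was not counted, so Vim and Gda are not set against it. The labels do not say whether equal replicate numbers mark 1 animal, so the neocortical values may not be independent of the hippocampal ones.

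In 8 of 116 groups of 4 libraries, 1 library lay far from the other 3, where chance gives about 5% of groups. Hippocampal LLC replicate 4 had Vim at 64.7 TPM against 80.0 to 82.5 TPM in the other 3. Hippocampal control replicate 14 had Shisa9 at 29.0 TPM against 35.2 to 35.4 TPM. Hippocampal LLC replicate 3 had Samd5 at 7.50 TPM against 6.17 to 6.26 TPM. Among cerebellar controls, replicate 15 had Lcorl at 6.96 TPM against 5.66 to 5.87 TPM, and replicate 17 had Mapk11 at 58.5 TPM against 48.2 to 48.9 TPM. The other 3 were sums over gene lists. Erythroid genes came to 4681 TPM in cerebellar LLC replicate 4 against 14820 to 15977 TPM. Choroid plexus genes came to 8542 TPM in hippocampal LLC replicate 2 against 151 to 324 TPM. Cerebellar granule cell genes came to 4208 TPM in cerebellar LLC replicate 1 against 6786 to 7053 TPM.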

How the results depend on the processing

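Over 39 alternatives, Gda passed in 38 and Vim in 36. The counts of genes with a higher and a lower effect in hippocampus, 1 and 1, were unchanged with a pseudocount of 0.1 TPM, no filter, robust eBayes, and length and GC content removed. They were 1 and 0 at a filter of 5 TPM, 2 and 3 with median-ratio scaling, 2 and 4 with quantile normalization, 7 and 6 with all 24 libraries in 1 fit, 1 and 2 with weights per region, 4 and 2 with such weights over 24 libraries, and 0 and 1 without the 3 hippocampal libraries rich in choroid plexus genes, an alternative added after seeing the data, as was the one before it. With weights per library they were 211 and 95, with weights from 0.117 for cerebellar LLC replicate 1 to 4.07; the cause was not tested. Leaving out 1 library or replicate number gave 0 to 15 higher and 1 to 16 lower, with 15 and 12 without cerebellar LLC replicate 4, 12 and 16 without LLC replicate 4 in both regions, and 0 higher without LLC replicate 3 or control replicate 15 in both. Equal replicate numbers did not pair the samples by the rule used (6 of 8 pairs over 0.1, r from -0.05 to 0.49, though 7 of 8 hippocampal libraries correlated best with their own number, a hint from the data only). With the title number as a replicate block the counts were 2 and 1, also with length and GC content removed, and with the description number as a block 2 and 2. Regional counts moved with median-ratio scaling, to 236 falling in hippocampus and 374 rising in cerebellum. Leaving out 1 library gave 63 to 932 rising and 7 to 708 falling in hippocampus, and 7 to 649 and 0 to 935 in cerebellum. Of 888 values of named genes 805 kept sign and side of the threshold and 19 changed sign, none of them in a gene that passed: Lcn2 (0.22) and Alas2 (0.0278) with a pseudocount of 0.1 TPM, S100a8 with weights per library (-0.22), Vwf without the choroid-rich libraries (-0.0535), S100a8 without control replicate 14 (-0.0201) or 16 (-0.122) in both regions, Alas2 without control replicate 17 in both (0.0657), and, leaving out 1 library, Alas2 (-0.64 to 0.37), S100a8 (-0.27 to 0.36) and Vwf (-0.10 to 0.33). Of 1599 list medians 1584 moved by less than the spread between replicates, the SD of the list's median level among libraries of a group. That rule takes no account of sign, so it does not show that a direction held. With 1 LLC library left out, the glucocorticoid median ranged from -0.35 to 0.12 and the myelin median from -0.12 to 0.22. Read depth is unknown, so no counting error can be given.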
